A study of Mus musculus with 8 samples.

Results

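The genes described here encode the transcriptional coactivator PGC-1α, its paralogue PGC-1β and the nuclear and mitochondrial factors through which these coactivators act on the respiratory programme. They are Ppargc1a, Ppargc1b, Esrra, Nrf1, Gabpa, Gabpb1, Tfam, Tfb1m and Tfb2m. Their probes were taken from the table of raw intensities by gene symbol, and a probe was used when its detection p-value was under 0.05 on 4 or more of the 8 arrays. The 9 genes had 13 probes in the table of 25697, and 12 of these passed, with at least 1 for every gene, among 13413 passing probes in all. The probe left out, Gabpa ILMN_1221800, was not detected on any array at that limit.

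RNA came from striatum of C57BL/6 mice at postnatal day 30, hybridised to Illumina bead arrays, with 4 arrays labelled PGC-1α wild type and 4 labelled PGC-1α null. No other allele or agent is named for either group. The title of the series names a deletion limited to medium spiny neurons, the projection neurons of the striatum, whereas the sample labels give null mice. The sources used here do not tell whether these arrays carry a deletion in the whole animal or in those neurons alone, nor which driver would have made it. Nothing in the labels ties each array to its own animal, and p-values therefore measure only the spread between these samples, part of which may be technical. All arrays shared 1 chip, with wild-type samples in its leading positions and null samples in the rest, so position and group cannot be told apart.

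PGC-1α and PGC-1β do not bind DNA themselves. They dock on nuclear receptors such as ERRα and on NRF-1, and bring in the enzymes that open chromatin and start transcription. NRF-1 and the GA-binding protein GABP, also called NRF-2, then act on nuclear genes for respiratory chain subunits and on Tfam, Tfb1m and Tfb2m, whose products work on the mitochondrial genome. In the brain PGC-1α is most abundant in GABAergic neurons, parvalbumin interneurons among them, and the parvalbumin gene Pvalb is known to be lower in brains of mice that lack it.

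Promoter windows show where known binding letters of this cascade lie in the members. Windows from 250 bases before to 50 bases after the RefSeq (GRCm38.p6) start were taken for 8 of the 9 genes. Nrf1 and Gabpb1 had 2 windows each. Ppargc1b was left out of this step, so nothing is said here about the letters in its promoter. Both strands were searched for GCGCANGCG (NRF-1), CCGGAAG (GABP), AAGGTCA (the core of the ERRα site) and TGACGTCA (CREB, which drives Ppargc1a after cAMP signals). Of the 10 windows 5 held a match. Those of the receptor gene Esrra and of the mitochondrial factors Tfam and Tfb2m are printed, with the match in capitals, because these genes stand at the receptor and mitochondrial ends of the cascade. They are chr19:6921759-6922058 for Esrra, chr10:71237995-71238294 for Tfam and chr1:179546227-179546526 for Tfb2m, all on the minus strand.
Esrra: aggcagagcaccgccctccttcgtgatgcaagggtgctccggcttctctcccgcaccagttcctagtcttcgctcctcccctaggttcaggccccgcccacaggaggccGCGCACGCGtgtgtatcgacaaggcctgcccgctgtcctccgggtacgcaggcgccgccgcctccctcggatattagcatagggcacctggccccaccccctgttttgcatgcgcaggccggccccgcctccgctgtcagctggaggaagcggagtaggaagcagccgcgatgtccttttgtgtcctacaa
Tfam: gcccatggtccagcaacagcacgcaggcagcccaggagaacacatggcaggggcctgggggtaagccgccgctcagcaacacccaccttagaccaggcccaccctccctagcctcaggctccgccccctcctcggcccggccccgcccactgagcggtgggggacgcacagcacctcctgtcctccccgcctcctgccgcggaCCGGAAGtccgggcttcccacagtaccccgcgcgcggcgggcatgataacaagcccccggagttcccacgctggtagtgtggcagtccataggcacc
Tfb2m: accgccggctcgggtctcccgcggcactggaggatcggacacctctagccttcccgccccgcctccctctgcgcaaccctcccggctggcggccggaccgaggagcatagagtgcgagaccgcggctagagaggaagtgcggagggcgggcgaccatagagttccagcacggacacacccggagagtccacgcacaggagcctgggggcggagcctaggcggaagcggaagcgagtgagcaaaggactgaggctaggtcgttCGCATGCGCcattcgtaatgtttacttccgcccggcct
The Tfam match to the GABP letters begins 47 bases before the start. The NRF-1 letters begin 141 bases before the start of Esrra and, on the opposite strand, 12 bases after that of Tfb2m. Neither of these matches holds for the longer form of the NRF-1 letters that ends in a further C. The other matches were a GABP match in Gabpa, 93 bases before its start, and an NRF-1 match in the upstream window of Gabpb1, 215 bases before its start, and no matches overlapped. No match in the windows of Ppargc1a, Nrf1 and Tfb1m says only that these letters are not there. Over all 32851 mouse promoter windows the NRF-1 letters occurred in 6.25%, those of GABP in 8.86%, those of ERRα in 4.72% and those of CREB in 1.79%. The NRF-1 letters were set after the member windows had been read, so the members' NRF-1 matches cannot be weighed against that share.

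Mean raw intensity ran from 295 to 499 per array. Detected probes numbered 13009 to 13910. Markers of medium spiny neurons were present, with 10 of 12 listed genes matched and all 10 of them tested, but so were those of other cells, with 8 of 8 astrocyte, 8 of 8 oligodendrocyte, 7 of 7 microglial, 7 of 7 endothelial and 7 of 7 cholinergic interneuron genes passing the detection rule. The values therefore belong to striatal tissue, in which fewer cells of a type and less RNA per cell cannot be told apart. Several marker lists lay to one side between the labelled groups, although none of their genes passed limma's adjusted threshold. All 10 medium spiny neuron genes were lower in null arrays (median difference -0.28, log2, with 3 at an unadjusted p under 0.05, where 6.9% of all probes lay). Their score, the mean over a list's tested genes of the log2 value minus the gene's mean, spanned 0.00035 to 0.34 on the wild-type arrays and -0.52 to 0.15 on the null arrays. All 7 cholinergic interneuron genes were lower as well (median -0.55, 5 at an unadjusted p under 0.05, 4 without overlap between groups, beside 4.14% of all probes), and their scores, 0.02 to 0.38 against -0.65 to -0.01, did not overlap. The 7 endothelial genes were also all lower (median -0.19, scores -0.02 to 0.19 against -0.24 to 0.03). The 8 oligodendrocyte genes were all higher (median 0.20, scores -0.95 to 0.18 against -0.11 to 0.34). The oligodendrocyte score of -0.95 was that of wild-type replicate 3 alone, and the other wild-type arrays scored 0.12 to 0.18, inside the null range. Also higher were 6 of 8 astrocyte genes (median 0.21, scores -0.23 to -0.03 against -0.09 to 0.19) and 5 of 7 microglial genes (median 0.02, scores -0.13 to 0.07 against -0.04 to 0.13). The part of these lists in the group differences given below was not tested. By Xist and the Y-linked Eif2s3y, wild-type replicate 2 and null replicates 1, 2 and 4 carried the male pattern, so the sexes were not balanced between the groups.

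The probe of the targeted gene did not separate the labels. Normalized Ppargc1a (log2 intensity) read 7.35, 7.22, 7.90 and 7.98 on wild-type replicates 1 to 4. On null replicates 1 to 4 it read 7.30, 8.09, 8.10 and 7.43. Each group held 2 arrays at or below 7.43 and 2 arrays at or above 7.90, and no array lay between. The wild-type mean was 7.61 ± 0.38 (SD, n = 4) and the null mean 7.73 ± 0.43. The difference, null minus wild-type, was 0.12 (SE 0.23, limma adjusted p = 0.94), which is 1.08-fold with a 95% interval from 0.77-fold to 1.53-fold. Raw intensities, before any normalization, lay between 199 and 378 on the wild-type arrays and between 199 and 475 on the null arrays, and the probe was detected on all 8 arrays. The sign of the difference turned when wild-type replicate 2 was left out (-0.0155), and likewise without the second (-0.0033) or the third (-0.0074) of the null arrays. The sources used here do not give which exons the null allele lacks, nor where in the transcript this probe lies. Whether this value can check the labels therefore cannot be settled here. The probe did not bear out a loss of Ppargc1a on the arrays labelled null, and each direction below is that of the arrays as labelled.

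**Figure D1:**
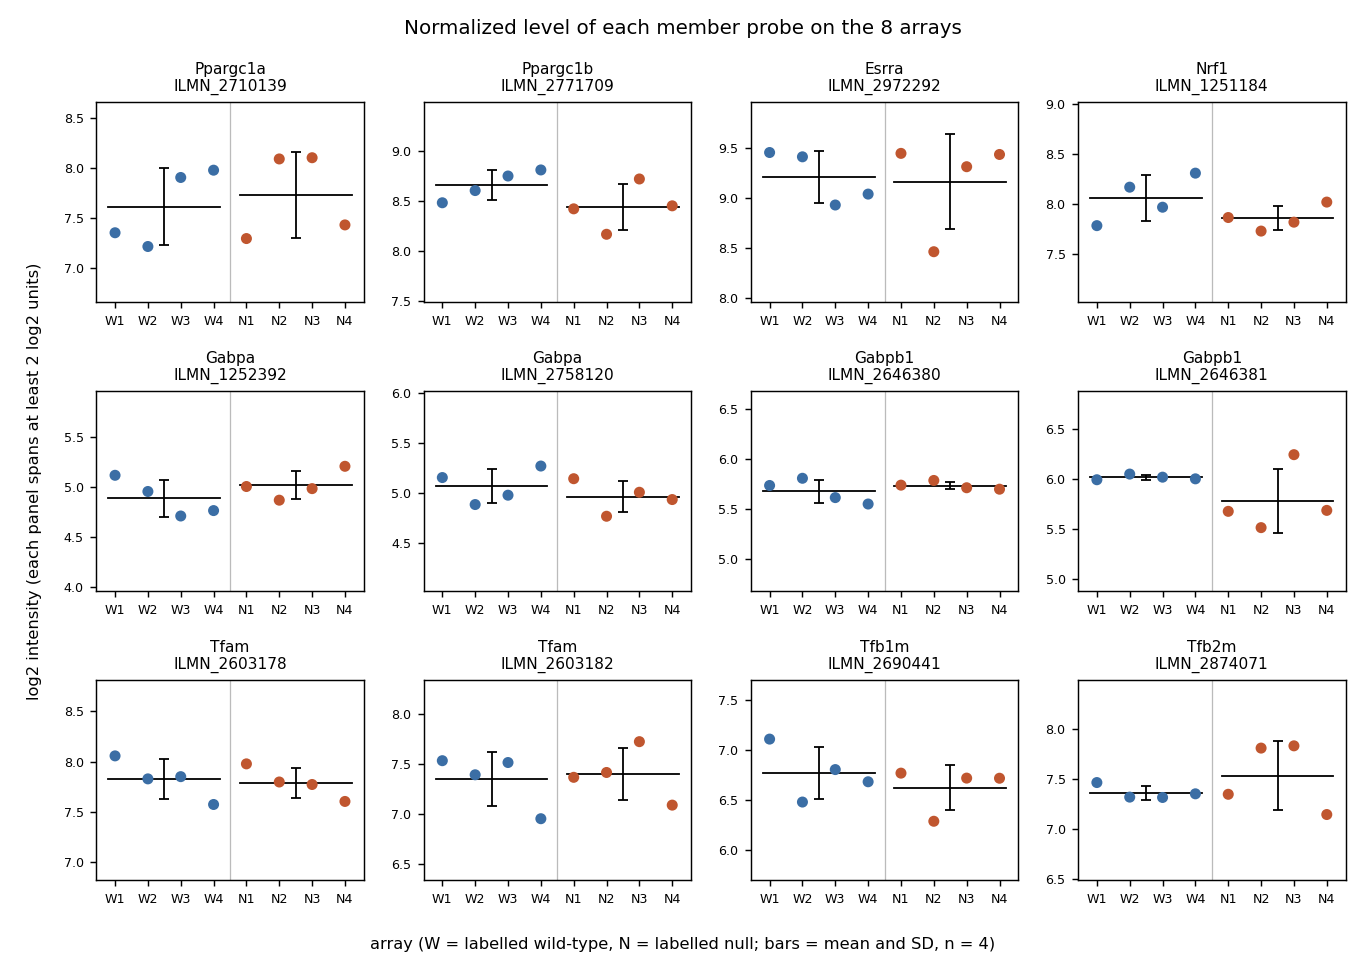
Normalized log2 intensity of the 12 member probes (vertical axis) on each array (horizontal axis; W1 to W4 labelled wild-type, N1 to N4 labelled null), with the mean and SD of each group of 4 as bars. The groups overlap in every panel, and Ppargc1a shows 2 arrays near 7.3 and 2 near 8 in each group.

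None of the 12 probes passed the test, and none had groups without overlap. Limma with Benjamini-Hochberg adjustment over all 13413 probes called 0 members (0% of all probes were called), and the members' adjusted p ran from 0.77 to 0.98. At an unadjusted p under 0.05 there were 0 members as well, where 6.9% of all probes lay, and groups without overlap were found for 4.14% of all probes. In null arrays 5 of the 12 probes were higher and 7 lower, and their median difference was -0.04 (log2), beside 49.1% higher, 50.9% lower and a median of -0.0043 over all probes. The 95% intervals of the 12 differences lay between 0.67-fold and 1.53-fold, so none reached a 2-fold change in either direction. An adjusted p above the threshold does not show that the groups were alike, and changes inside those intervals could not be told from the spread between arrays.

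**Figure D2:**
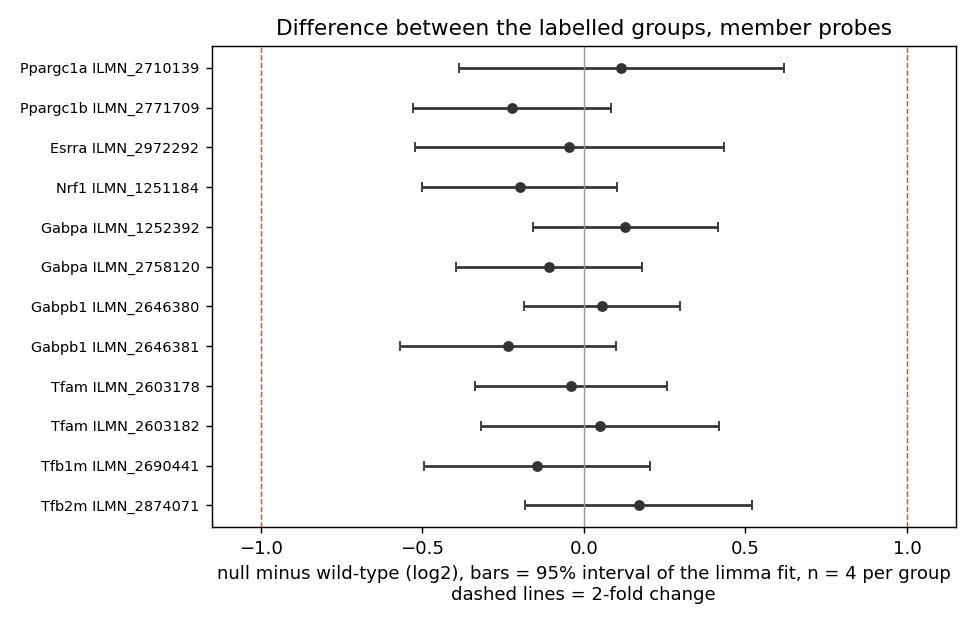
Difference between the labelled groups (horizontal axis, null minus wild-type, log2) for each member probe, with the 95% interval of the limma fit (n = 4 per group) and dashed lines at a 2-fold change. Every interval crosses 0, and the widest is that of Ppargc1a.

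Ppargc1b encodes PGC-1β, which shares the docking motifs of PGC-1α and covers part of its work in other tissues. Its probe read 8.48, 8.61, 8.75 and 8.81 on the wild-type arrays and 8.42, 8.17, 8.72 and 8.45 on the null arrays. The lowest value belonged to null replicate 2, and null replicate 3 lay among the wild-type values, so the groups overlapped. The difference was -0.22 (SE 0.14, limma adjusted p = 0.77), or 0.86-fold with a 95% interval from 0.69-fold to 1.06-fold. Without null replicate 3 the difference was -0.31 (limma adjusted p = 0.73), and without null replicate 2 it shrank to -0.13.

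Esrra encodes ERRα, the orphan nuclear receptor that is both a partner and a target of PGC-1α. Its values were 9.45, 9.41, 8.93 and 9.04 on the wild-type arrays and 9.45, 8.47, 9.31 and 9.44 on the null arrays. Null replicate 2 stood alone at the low end, 0.47 below the next array. The difference was -0.04 (SE 0.22, limma adjusted p = 0.98), and without null replicate 2 it was 0.19 (SE 0.15, adjusted p = 0.79), and it also turned positive without wild-type replicate 1 (0.04) or wild-type replicate 2 (0.02). The 4 arrays with the highest Ppargc1a values, wild-type replicates 3 and 4 and null replicates 2 and 3, held the 4 lowest Esrra values. This is a description of 8 arrays that share a chip, and the order was noticed after the values were seen.

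Nrf1 encodes nuclear respiratory factor 1, the DNA-binding activator of many respiratory genes. It read 7.79, 8.17, 7.97 and 8.31 on the wild-type arrays and 7.87, 7.73, 7.82 and 8.02 on the null arrays. The highest 2 values were wild-type, but wild-type replicate 1 lay below 3 of the null arrays. The difference was -0.20 (SE 0.14, limma adjusted p = 0.79), or 0.87-fold with an interval from 0.71-fold to 1.07-fold, and it was -0.12 without wild-type replicate 4.

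GABP is built from the ETS-domain protein encoded by Gabpa, which binds DNA, and the ankyrin-repeat protein encoded by Gabpb1, which carries the activation domain. The 2 usable Gabpa probes lay close to background, each detected on 6 of 8 arrays, and differed in opposite directions. Probe ILMN_1252392 lay between 4.71 and 5.11 on the wild-type arrays and between 4.87 and 5.20 on the null arrays (difference 0.13, SE 0.13). Probe ILMN_2758120 lay between 4.88 and 5.27 on the wild-type arrays and between 4.77 and 5.14 on the null arrays (difference -0.11, SE 0.13). No direction can be given for Gabpa from probes that disagree at this brightness.

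The 2 Gabpb1 probes also disagreed. Probe ILMN_2646381 read 5.99, 6.05, 6.02 and 6.00 on the wild-type arrays, the tightest group among the members with an SD of 0.02. On the null arrays it read 5.68, 5.51, 6.24 and 5.69. Null replicates 1, 2 and 4 lay below every wild-type array and null replicate 3 above every one. The difference was -0.23 (SE 0.15, limma adjusted p = 0.77), and -0.39 (SE 0.12, adjusted p = 0.60) without null replicate 3, but -0.15 without null replicate 2. Probe ILMN_2646380 of the same gene did not follow it, at 5.55 to 5.81 on the wild-type arrays and 5.70 to 5.78 on the null arrays (difference 0.06, SE 0.11). Which transcripts each probe reads is not analysed here.

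Tfam encodes the protein that packages mitochondrial DNA and opens its promoters. Its probe ILMN_2603178 read 8.06, 7.83, 7.85 and 7.57 on the wild-type arrays and 7.98, 7.80, 7.77 and 7.60 on the null arrays. The replicates spanned nearly the same range in both groups, and the difference was -0.04 (SE 0.14, limma adjusted p = 0.96), or 0.97-fold with an interval from 0.79-fold to 1.19-fold. The other Tfam probe, ILMN_2603182, lay between 6.96 and 7.54 on the wild-type arrays and between 7.09 and 7.73 on the null arrays (difference 0.05, SE 0.17). For both probes the lowest value in each group was replicate 4. The sign of the first turned without wild-type replicate 1 (0.04) or null replicate 4 (0.02), and that of the second without wild-type replicate 4 (-0.08) or null replicate 3 (-0.06).

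Tfb1m encodes the methyltransferase that modifies the small ribosomal RNA of mitochondria, and Tfb2m the factor that starts transcription together with the mitochondrial RNA polymerase. Tfb1m read 7.11, 6.48, 6.81 and 6.68 on the wild-type arrays and 6.77, 6.29, 6.72 and 6.72 on the null arrays. Its extremes were wild-type replicate 1 at the top and null replicate 2 at the bottom, and the difference was -0.15 (SE 0.16, limma adjusted p = 0.87). It was -0.03 when either 1 of these arrays was left out and -0.24 without wild-type replicate 2. Tfb2m read 7.46, 7.32, 7.31 and 7.35 on the wild-type arrays and 7.34, 7.81, 7.83 and 7.14 on the null arrays. Null replicates 2 and 3 lay above every other array and null replicate 4 below every other, so the spread was 0.34 (SD) in null against 0.07 in wild-type arrays. The Tfb2m difference was 0.17 (SE 0.16, limma adjusted p = 0.84), with 0.08 and 0.07 when null replicate 2 or 3 was left out and 0.30 without null replicate 4. Null replicate 2, which held the lowest Ppargc1b, Esrra, Nrf1 and Tfb1m values of the 8 arrays, also had the highest score of cortical excitatory neuron genes and the lowest of medium spiny neuron (-0.52) and cholinergic interneuron (-0.65) genes. The cortical score, over 4 of 7 listed genes, all higher in null arrays (median 1.30), was 1.86 there and between -2.02 and 0.45 on the other arrays. By group it spanned -2.02 to 0.32 on the wild-type arrays and -0.38 to 1.86 on the null arrays, and the part of these scores in the members' values was not tested.

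The members differed in how much they varied between arrays of one label. Each member's SD within groups was set against that of the 500 passing probes nearest to it in mean level. Ppargc1a, with an SD of 0.41 (log2), was above 94% of such probes, whose median SD was 0.20, and Esrra, with 0.38, was above 95.8%. The other probes ran from Gabpb1 ILMN_2646380, above 0.6% of like probes with an SD of 0.09, to Tfam ILMN_2603182, above 74%. So 6 of the 12 probes varied more than the median probe of like level. The intervals of Ppargc1a and Esrra are accordingly the widest, reaching 0.50 and 0.48 (log2) to either side.

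**Figure D3:**
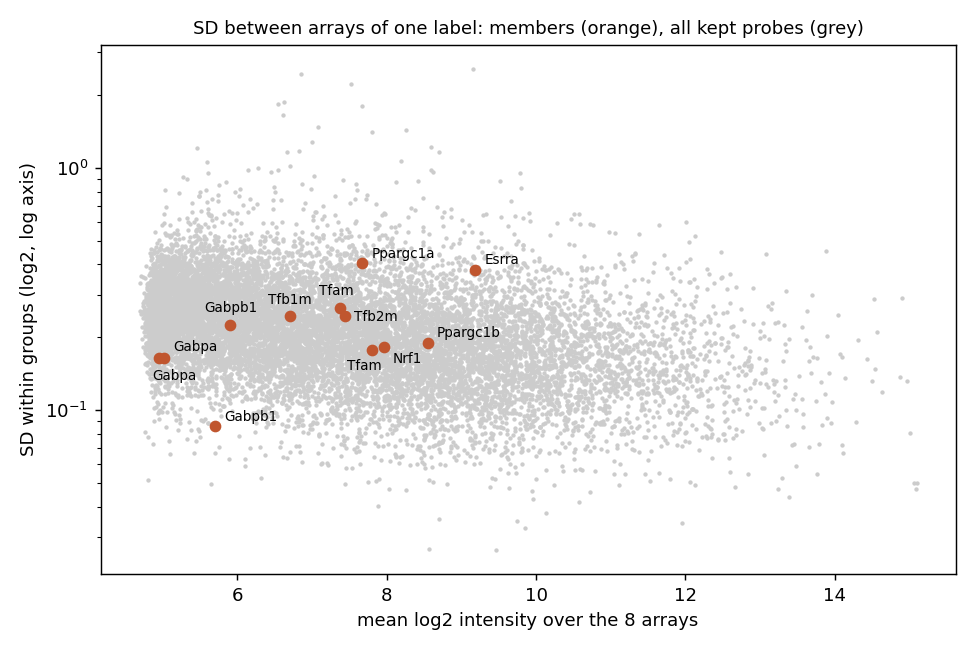
SD between arrays of one label (vertical axis, log2 units on a log axis) against mean log2 intensity over the 8 arrays (horizontal axis), for the 12 member probes in orange and all 13413 passing probes in grey. Ppargc1a at 0.41 and Esrra at 0.38 lie near the upper edge of the cloud, and 1 Gabpb1 probe at 0.09 near the lower edge.

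Because Ppargc1a took 2 separate levels in each group, the genes that followed its order of arrays were looked up by Pearson's r over the 8 arrays. The ranking covered the 7666 passing probes with an SD of at least 0.2 (log2), and since the arrays fall into 2 clusters for Ppargc1a, r is a measure of likeness here and carries no p-value. The 5 probes most like it were those of Rapgef1 (r = 0.96), which encodes an exchange factor for small GTPases, Smc5l1 (now Smc5; 0.94), of a chromosome maintenance complex, 2610034E13Rik (now Med25; 0.93), of the Mediator complex, the homeobox gene Pknox2 (0.93) and 3110001A13Rik (now Fam107b; 0.93). The 5 most opposite were 1110036O03Rik (now P3h4; r = -0.98), Cplx1 (-0.97), the chemokine gene Ccl21a (-0.97), the potassium channel gene Kcnk13 (-0.96) and Gpc5 (-0.95), a glypican gene. Cplx1 encodes complexin 1, a regulator of synaptic vesicle fusion that is known to depend on PGC-1α in brain. It read 13.3, 13.6, 12.8 and 12.7 on the wild-type arrays and 13.4, 12.6, 12.7 and 13.5 on the null arrays. Ccl21a read 6.38, 6.65, 4.31 and 4.46 on the wild-type arrays and 6.39, 4.50, 4.40 and 6.61 on the null arrays. Its low values lay at background, where Gabpa ILMN_1221800, detected on no array, read 4.30 to 4.61. Pknox2 (4.39 to 5.08), 2610034E13Rik (4.96 to 5.54), 3110001A13Rik (4.92 to 5.74) and 1110036O03Rik (5.03 to 5.84) were also dim, so their r rests on values near background.

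Pvalb, listed for its known dependence on PGC-1α, took 2 levels on the same arrays in the opposite sense. It read 9.02, 9.26, 5.74 and 5.28 on the wild-type arrays and 9.52, 6.43, 5.11 and 9.87 on the null arrays. The 4 arrays at 9.02 or above were the 4 with the lowest Ppargc1a, and the 4 at 6.43 or below were the 4 with the highest, 2 of each label in either set. Between the labelled groups Pvalb differed by 0.41 (SE 1.13, limma adjusted p = 0.96). The score of the parvalbumin interneuron list (5 of 8 genes tested, Pvalb and Cplx1 among them, with 2 higher in null arrays and 3 lower) read 0.50, 0.68, -0.33 and -0.61 on the wild-type arrays and 0.40, -0.60, -0.64 and 0.60 on the null arrays. Pvalb alone, with a range of 4.76 (log2), carries much of this unscaled mean, so the score adds little to the Pvalb values. Of the 4 arrays with the lowest Ppargc1a 3 carried the male pattern of Xist and Eif2s3y, all but wild-type replicate 1, and of the 4 with the highest 1 carried it, null replicate 2. What sets the 2 levels, and whether the labels match the genotypes of these arrays, was not tested. If they do not match, none of the null minus wild-type values given here is a comparison of genotypes. The other members followed Ppargc1a less closely, from r = -0.74 for Esrra to 0.64 for Tfb2m, with Ppargc1b at 0.19 and Nrf1 at -0.12.

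**Figure D4:**
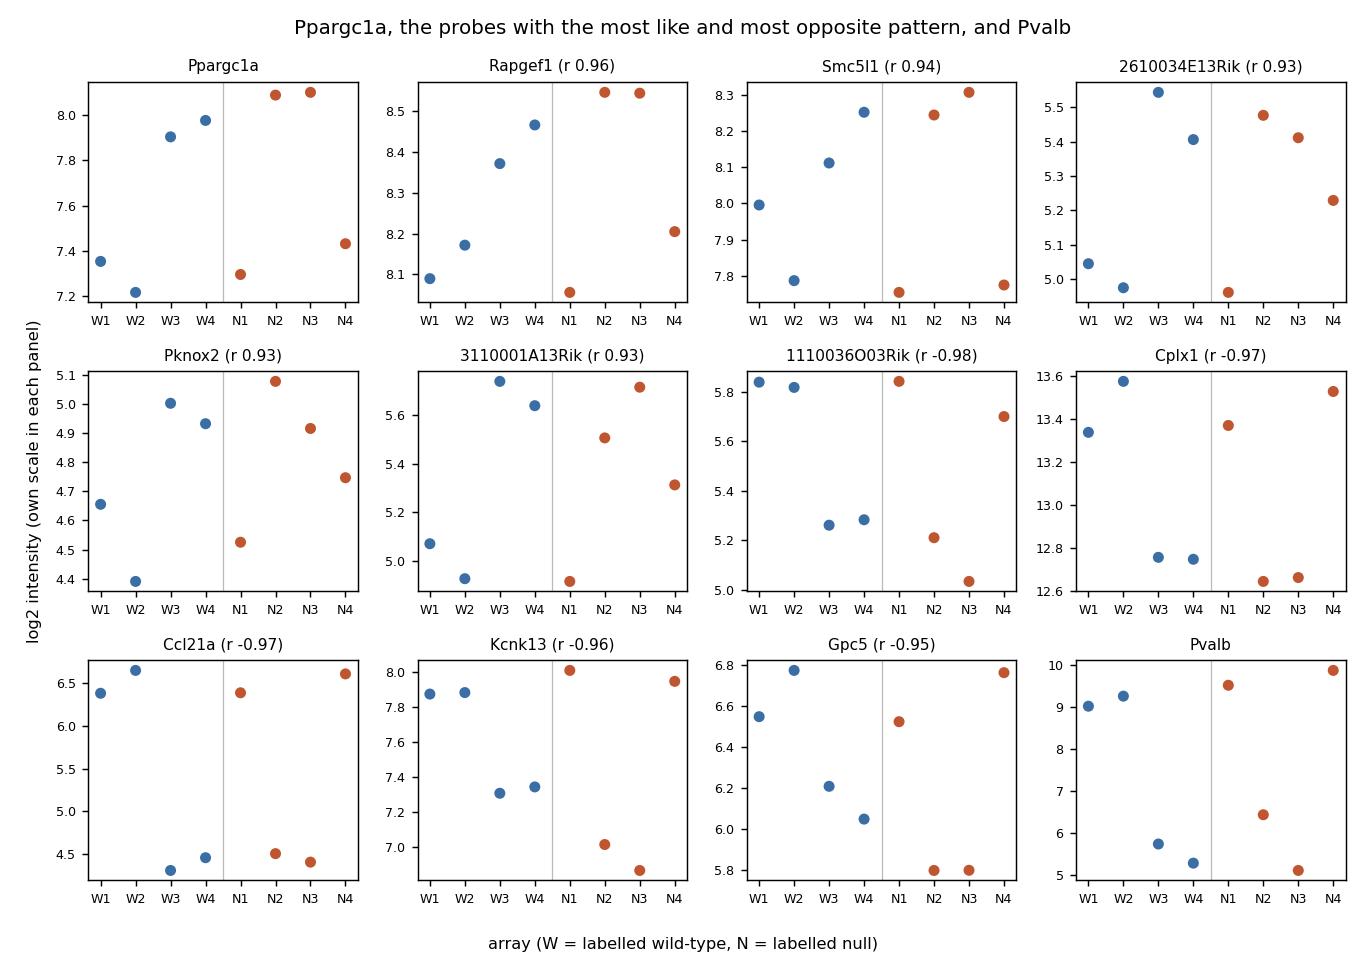
Log2 intensity (vertical axis, own scale in each panel) on each array (horizontal axis; W labelled wild-type, N labelled null) of Ppargc1a, the 5 probes most like it, the 5 most opposite and Pvalb, with r over the 8 arrays in the panel titles. Ppargc1a is low and Pvalb high on W1, W2, N1 and N4, and the reverse holds on W3, W4, N2 and N3.

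The other genes of the pathway were read from 6 lists of 154 genes, of which 138 were matched to the table and 112 tested, 1 probe a gene. None passed (0 of 112, beside 0% of all probes), 61 were higher in null arrays and 51 lower (median 0.03), and 3 had an unadjusted p under 0.05 (2.68%, beside 6.9% of all probes). Groups did not overlap for 6 of the 112 (5.36%, beside 4.14% of all probes). In the sentences that follow, differences are log2, null minus wild-type, and none of the named genes passed limma's adjusted threshold. The 3 genes with the smallest p of each list are named. Because they were picked by p from this same fit, a lack of overlap between groups in a named gene is no separate support.

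Among further PGC-1 family members, nuclear receptors and other docking partners, 6 of 11 tested genes were higher and 5 lower, with a median of 0.00033. The glucocorticoid receptor gene Nr3c1 differed by 0.22 (SE 0.14) and the hepatic receptor gene Hnf4a by -0.19 (SE 0.15). Both were dim (4.98 to 5.68 for Nr3c1, 5.14 to 5.82 for Hnf4a), so no direction is drawn for them. Hcfc1, which encodes a cofactor that binds the PGC-1 proteins, differed by -0.14 (SE 0.12). Among regulators of the abundance and activity of PGC-1α, 11 of 26 were higher and 15 lower, with a median of -0.04. Sirt3, the mitochondrial deacetylase, differed by 0.30 (SE 0.14), Mybbp1a, a repressor of PGC-1α, by -0.24 (SE 0.11) and the acetyltransferase gene Ep300 by -0.26 (SE 0.13). Mybbp1a was lower on every null array (7.99 to 8.30) than on any wild-type array (8.41 to 8.44).

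The lists closest to Tfam and its partners went both ways too. Of 15 tested genes of mitochondrial DNA replication and maintenance 9 were higher and 6 lower, with a median of 0.06. Rnaseh1, which encodes the nuclease that removes RNA from RNA-DNA hybrids in mitochondria and nucleus, read 6.48, 6.16, 6.51 and 6.21 on the wild-type arrays and 6.82, 6.74, 6.95 and 6.58 on the null arrays. Every null array lay above every wild-type array, and the difference was 0.43 (SE 0.13, limma adjusted p = 0.70). In the same list Mpv17, whose product sits in the inner membrane and is needed to keep mitochondrial DNA, differed by 0.25 (SE 0.14) and the ribonucleotide reductase gene Rrm2b by 0.21 (SE 0.13). Of 17 genes of mitochondrial transcription and RNA processing 8 were higher and 9 lower, with a median of -0.04. The RNA-binding protein gene Grsf1 differed by -0.18 (SE 0.13), 1810035L17Rik (now Slirp), an RNA-binding partner of Lrpprc, by 0.16 (SE 0.12) and the tRNA-processing gene Elac2 by 0.17 (SE 0.13).

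Downstream of NRF-1 and GABP, 16 of 24 nuclear genes with known sites were higher in null arrays and 8 lower (median 0.07). Uqcrh, a subunit gene of complex III, read 12.4, 12.3, 12.3 and 12.4 on the wild-type arrays and 12.6, 12.8, 12.6 and 12.6 on the null arrays, without overlap (difference 0.29, SE 0.11, limma adjusted p = 0.70). Cox6c, of cytochrome oxidase, differed by 0.25 (SE 0.12) and Ndufb6, of complex I, by 0.21 (SE 0.11), the latter without overlap. Of 20 known responders to PGC-1α in neurons and muscle 11 were higher and 9 lower, with a median of 0.04. The catalase gene Cat differed by 0.31 (SE 0.12), also without overlap, Idh3a, of the citric acid cycle, by -0.23 (SE 0.16) and the mitochondrial fusion gene Mfn2 by -0.17 (SE 0.17).

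**Figure D5:**
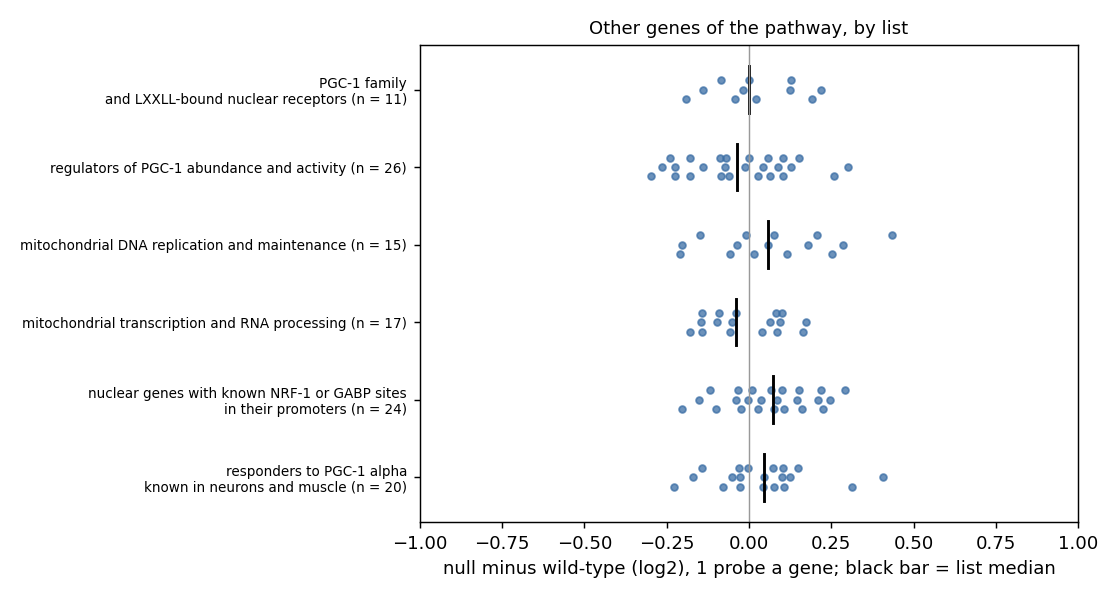
Difference between the labelled groups (horizontal axis, null minus wild-type, log2) of each tested gene in 6 pathway lists, 1 point a gene, with the list median as a black bar. Points lie on both sides of 0 in every list, and no gene passed the adjusted threshold.

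Genes were also grouped by promoter letters. Among 6408 tested genes with a promoter window, 48.3% were higher in null arrays, with a median difference of -0.0072. The 985 genes with the NRF-1 letters had a median of -0.0037 (49.3% higher), the 1223 with the GABP letters -0.0059 (48.9%), the 256 with the ERRα core -0.018 (47.3%) and the 237 with the CREB letters -0.020 (45.1%). At an unadjusted p under 0.05 lay 5.08%, 3.68%, 6.64% and 8.02% of these sets in that order, beside 6.68% of all genes with a window. In each of these sets 0 genes were called. The genes next to Ppargc1a on chromosome 5 were read as neighbours of the targeted locus. Of the 10 protein-coding genes on either side in RefSeq order 12 were tested, 6 higher and 6 lower, with 0 called. Sepsecs, the fifth gene on one side, which acts in selenocysteine synthesis, was lower on every null array (4.48 to 4.62) than on any wild-type array (4.84 to 5.07; difference -0.41, SE 0.11, limma adjusted p = 0.66). Groups did not overlap for 4.14% of all probes. The Sepsecs values lay near background: Gabpa ILMN_1221800, detected on no array, read 4.30 to 4.61. No direction is drawn for Sepsecs at this brightness.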

How the data were processed

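Striatal RNA was profiled on 8 bead arrays, grouped by sample title. Per the file headers, the deposited raw table holds mean bead intensity per probe, linear and not normalized, and detection p-values of each probe on each array. The submitters' processing notes name GenomeStudio and no version. The authors' processed intensity values (array medians 14.9 to 15.0, 23.1% below 0) have an unstated background and normalization method and served only as an alternative, with values under 16 set to 16.

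Intensities were corrected, quantile-normalized and log2-transformed with neqc (offset 16) in limma 3.58.1 under R 4.3.3, and 13413 probes detected (p under 0.05) on at least 4 arrays entered lmFit and eBayes for the null minus wild-type difference (two-sided; Benjamini-Hochberg; threshold 0.05). Simulated data with 200 of 13413 probes changed gave 42% recovery at 1.5-fold and 80% at 2-fold. The changed probes were picked at random, 50 at each of 1.5, 2, 4 and 8-fold. Their noise was independent between probes and arrays, without shifts shared by many genes. These shares are averages and do not give the recovery of any member, least of all of the more variable Ppargc1a and Esrra. The number of arrays limits precision (median SE 0.15). Members, lists and alternatives were chosen with earlier results of these data known. The rule for named genes took every member, the 3 smallest p per pathway list, the 5 most like and 5 most opposite to Ppargc1a, Pvalb, Xist and Y-linked genes. Others, Sepsecs among them, were chosen after their values were seen. The NRF-1 letters were set after the promoter windows had been read: a form longer by a final C was searched first and matched neither Esrra nor Tfb2m. List genes were matched by symbol or, for 17, by a synonym.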

Additional observations from a re-analysis of the deposited data

Results flagged for a closer look

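A sample far from the other 3 of its group was found for 11 of 94 group readings (47 probes), by Dixon's ratio of the gap to the whole range, at its 95% critical value. Chance gives about 1 in 20. Most of the 11 were sex-linked probes on wild-type replicate 2 and null replicate 3, whose sex pattern differed from the rest of their group. Those readings are not independent, so 11 of 94 cannot be weighed against that share. Of the 24 readings of member probes 2 stood apart, both on null replicate 2. Esrra read 8.47 there (other null arrays 9.31 to 9.45), and Tfb1m 6.29 (others 6.72 to 6.77).

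The other 9 were sex-linked genes. On wild-type replicate 2 Eif2s3y read 9.14, Jarid1d (now Kdm5d) 5.97 and the 2 Xist probes 4.91 and 4.35, where the other wild-type arrays lay at 4.32 to 4.40, 4.29 to 4.40 and above 8. On null replicate 3 Eif2s3y read 4.41, Jarid1d 4.42, Ddx3y 10.6 and the Xist probes 8.57 and 8.34, where the other null arrays lay at 9.29 to 9.49, 6.36 to 6.39, 11.2 and below 5.2.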

How the results depend on the processing

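Each member value was recomputed under 17 alternatives, or 16 for the 2 Gabpa probes, which were not detected on all 8 arrays. No member and no pathway gene passed the adjusted threshold under any of them. Over all probes the count stayed at 0 (926 at an unadjusted p under 0.05) except without null replicate 4. There 1 probe passed, that of the choroid plexus gene Ttr (difference -4.15, limma adjusted p = 0.0486). The count thus ran from 0 to 1 when each array was left out. On null replicate 4 itself Ttr read 13.1, the highest value of the 8 arrays. It read 5.68 to 6.83 on the other null arrays and 9.22 to 11.3 on the wild-type arrays. The unadjusted count fell to 387 with median centring and rose to 1294 with array weights; without the detection filter it was 1623 of 25697 probes (6.32%, beside 6.9%).

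Of 106 member values under settings that kept all arrays 104 kept their direction. Some of these could not turn. The replicate block, the lack of a detection filter and detection on all 8 arrays reuse the same normalized values and give the same difference. Array weights turned Esrra to 0.0695 and Tfam ILMN_2603182 to -0.0039. Leaving out 1 array turned 10 of 96 values, in 4 probes: Ppargc1a ran from -0.0155 to 0.261, Esrra from -0.138 to 0.189, Tfam ILMN_2603178 from -0.124 to 0.0371 and Tfam ILMN_2603182 from -0.0812 to 0.153. The others kept their sign: Ppargc1b ran from -0.314 to -0.13, Nrf1 from -0.29 to -0.115, Gabpa ILMN_1252392 from 0.0654 to 0.206, Gabpa ILMN_2758120 from -0.171 to -0.0425, Gabpb1 ILMN_2646380 from 0.0148 to 0.1, Gabpb1 ILMN_2646381 from -0.389 to -0.146, Tfb1m from -0.241 to -0.0321 and Tfb2m from 0.0708 to 0.299. The cause was not tested. Without null replicate 3, 2 members had an unadjusted p under 0.05, Ppargc1b (0.0465) and Gabpb1 ILMN_2646381 (0.00816), beside 914 of all 13413 probes (6.81%).

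With the replicate number as a block, 0 members and 0 probes passed (1038 at an unadjusted p under 0.05). The labels do not say that a number pairs samples, the correlation of same-numbered arrays ran from -0.0037 to 0.23, and 4 of 8 arrays were closest to the array of their own number. Without background correction 8 of the 10 genes ranked nearest or most opposite to Ppargc1a remained. The 2 Gabpa probes lie too near background for a direction.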
